A study of Mus musculus with 6 samples.

Results

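Endothelial marker genes were examined in RNA-seq libraries of EGFP+ cardiac cells, a sort directed at fibroblasts that have switched on periostin. The 10 members, Pecam1, Cdh5, Kdr, Flt1, Tie1, Tek, Emcn, Egfl7, Cldn5 and Vwf, were taken by symbol from the 28987 genes of the table. They were chosen by their measured values, as endothelial markers read against the sequencing run named in the sample titles. Their difference between runs is therefore given as a description, with no test. All 10 members passed the filter that kept 15109 genes with a mean linear value of at least 1 over the 6 libraries.

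The cells came from ventricles collected 4 weeks after pressure overload by transverse aortic constriction (TAC) of mice that were 8 to 10 weeks old. Every mouse carried a tamoxifen-inducible Cre (MerCreMer) knocked into the Postn locus and the R26 eGFP reporter. By the labels each received tamoxifen by injection at 100 mg/kg and in chow at 40 mg/kg. The paper's methods state other doses for both. The 3 control libraries had no floxed Hsp47 allele stated in their labels, and the 3 Hsp47-deleted libraries came from mice with Hsp47 fl/fl, so that Cre removes the gene (Serpinh1) in periostin-lineage cells. Control replicates 3 and 4 were in a first sequencing run, and control replicate 2 was in a second run with all 3 Hsp47-deleted libraries. Cells were gated on EGFP alone, and CD31, the protein of Pecam1, was used for counting but not for exclusion. The control group thus spans both runs, whereas the label Hsp47-deleted occurs in the second run alone.

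Endothelial cells line blood vessels and are joined to each other by cadherin and claudin contacts. They sense vascular endothelial growth factor (VEGF) and angiopoietins through receptor tyrosine kinases that few other cells carry, and they store von Willebrand factor for clotting. The heart is rich in capillaries, and endothelial cells are among its most numerous non-muscle cells, so digested ventricles hold many of them beside the fibroblasts.

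For 8 of the 10 members, all 4 second-run libraries, control replicate 2 included, were above both first-run controls without overlap. The exceptions were Tek, the receptor for angiopoietins, and Vwf, whose values overlapped between runs. Of all tested genes, 35% were higher in the second run without overlap. With each library centred on its median, 3 members were higher without overlap, against 20.1% of genes, and Vwf was lower. The summed linear value of the 10 members was 162 and 99.2 in control replicates 3 and 4, 286 in control replicate 2, and 271, 239 and 185 in the libraries labelled Hsp47-deleted. Those sums were 0.0235% and 0.0131% of the library total in the first run and 0.0216% to 0.0353% in the second. Without Tek, which had the highest linear value summed over the 6 libraries, the sums were 91.2 and 51.3 in the first run and 139 to 218 in the second. In bulk RNA, fewer cells of a type and less RNA per cell cannot be told apart.

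The deposited values are log2(value + 1), the linear unit behind them is not named, and the linear totals ran from 690499 to 855404, so depth is unknown. Serpinh1, the deleted gene, had log2 values of 6.28, 6.10 and 7.60 in control replicates 3, 4 and 2 and of 6.87, 6.67 and 6.66 in Hsp47-deleted replicates 1, 2 and 3. Its pooled log2 difference was 0.07 (SE 0.43, limma adjusted p = 0.947), and with run as a covariate it was -0.87. Within the second run all 3 libraries labelled Hsp47-deleted were below the control, as they were for 11.7% of all tested genes. This order rests on 1 control library. The Serpinh1 value is per gene and does not separate the floxed exons. The fibroblast list of 12 genes summed to 9843 to 13121 in the controls and 15277 to 16975 in the Hsp47-deleted libraries. Without Dcn, its largest gene, the sums were 4754 to 5720 and 6913 to 8339. These sums include Postn, named once the values had been seen. It stood at 57.3, 56.9 and 68.5 in control replicates 3, 4 and 2. In Hsp47-deleted replicates 1, 2 and 3 it was 1188, 1451 and 1317. The gap between groups in the sums without Dcn thus rests in part on Postn. Of the 12 genes, 9 were higher and 3 lower in the pooled comparison, where 74.5% of all tested genes were higher. With run as a covariate 5 of the 12 were lower, against 28.1% of all tested genes. Fibroblast content was not tested. Ptprc, the pan-leukocyte gene, was listed at 0 in all 6 libraries, which may be a failed estimate.

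**Figure D1:**
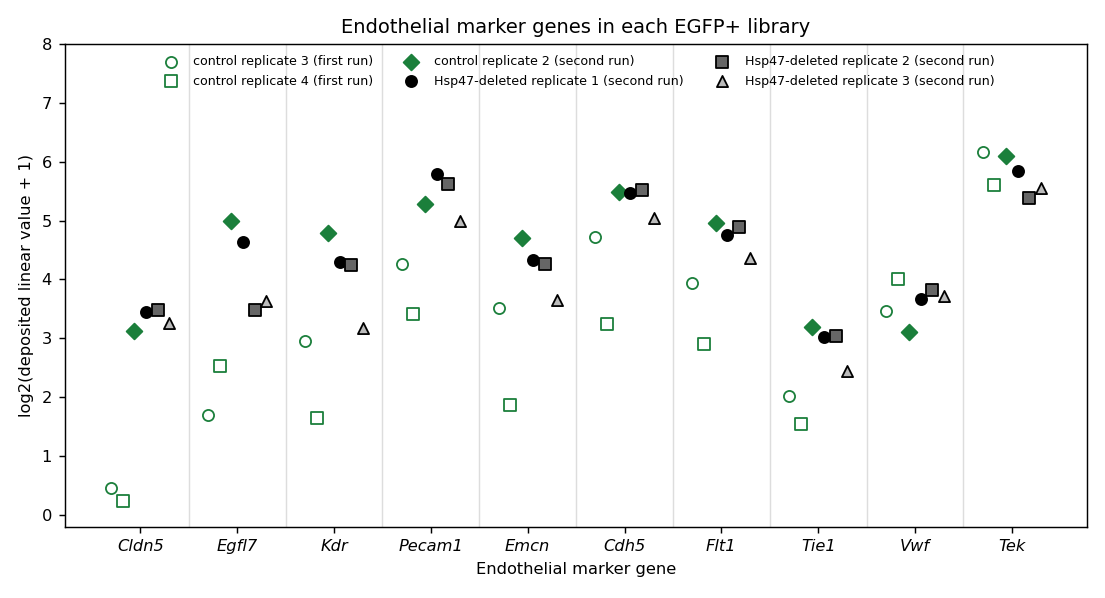
Values of the 10 endothelial markers as log2(deposited linear value + 1), one point per library, with genes ordered by their difference between runs. The open green points of the first-run controls lie below every second-run point for the 8 genes from Cldn5 to Tie1. For Vwf and Tek they overlap the second-run points. Of all tested genes, 35% were higher in the second run without overlap.

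The sequence before the transcription start is shown for Cldn5, which had the largest run difference, for the VEGF receptors Kdr and Flt1, and for Tek. A link between these sequences and the run difference was not tested. RefSeq windows on GRCm38.p6 were found for 7 of the 10 members (none for Pecam1, Cdh5 and Vwf), and the 250 bases before the start were used. Capitals mark GGAA on the printed strand or TTCC, the same letters on the other strand, which is the core recognised by ETS factors such as ERG and FLI1. The windows are chr16:18776597-18776846 (+) for Cldn5, chr5:75978456-75978705 (-) for Kdr, chr5:147726012-147726261 (-) for Flt1 and chr4:94739039-94739288 (+) for Tek, printed 5′ to 3′ along the gene.
Cldn5: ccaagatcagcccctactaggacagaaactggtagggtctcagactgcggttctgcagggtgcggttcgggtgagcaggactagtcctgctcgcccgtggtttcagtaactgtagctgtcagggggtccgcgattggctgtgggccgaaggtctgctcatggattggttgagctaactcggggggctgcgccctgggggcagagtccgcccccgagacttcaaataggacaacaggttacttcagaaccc
Kdr: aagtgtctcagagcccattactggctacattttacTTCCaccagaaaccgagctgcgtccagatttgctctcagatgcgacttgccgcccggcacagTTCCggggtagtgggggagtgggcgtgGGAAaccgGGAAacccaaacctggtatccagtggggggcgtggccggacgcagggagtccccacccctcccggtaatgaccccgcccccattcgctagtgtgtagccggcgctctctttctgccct
Flt1: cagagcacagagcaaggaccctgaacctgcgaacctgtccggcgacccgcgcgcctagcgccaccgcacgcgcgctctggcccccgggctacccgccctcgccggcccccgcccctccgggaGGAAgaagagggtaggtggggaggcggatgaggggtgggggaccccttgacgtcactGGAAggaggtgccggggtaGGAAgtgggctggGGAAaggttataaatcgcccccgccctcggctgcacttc
Tek: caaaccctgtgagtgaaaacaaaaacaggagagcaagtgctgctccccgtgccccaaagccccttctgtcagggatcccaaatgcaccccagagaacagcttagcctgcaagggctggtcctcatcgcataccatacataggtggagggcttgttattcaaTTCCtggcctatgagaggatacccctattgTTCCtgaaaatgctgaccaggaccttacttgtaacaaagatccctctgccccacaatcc

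Cldn5 held 0 cores in this window, Kdr 4, Flt1 4 and Tek 2. The other members with a window held 7 (Tie1), 4 (Emcn) and 1 to 5 in the 3 windows of Egfl7. At least 1 core stood in 93.4% of all 32851 mouse windows of the same length, with a median of 3. The TATA motif TATAAA was in the Flt1 window and in 12.4% of all windows, and GATAAG was in none of the members' windows and in 6.55% of all. Searches covered both strands, and GGAA matches may overlap longer motifs.

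Both VEGF receptors were lower in the first run. Kdr (VEGFR2, chr5:75932827-75978458, minus strand) carries most VEGF signalling in endothelial cells. Its linear values were 6.76 and 2.13 in first-run control replicates 3 and 4, 26.8 in control replicate 2, and 18.6, 18.1 and 8.09 in Hsp47-deleted replicates 1, 2 and 3. Control replicate 2 was the highest of the 6 libraries, and Hsp47-deleted replicate 3 was close to control replicate 3. The log2 mean was 3.13 ± 1.58 (SD, n = 3) in the controls and 3.91 ± 0.63 (SD, n = 3) in the Hsp47-deleted libraries, a difference of 0.78 (SE 0.75; limma adjusted p = 0.629).

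Flt1 (VEGFR1, chr5:147561604-147726011, minus strand) binds VEGF tightly and acts in part as a decoy. Its linear values were 14.4 and 6.46 in the first run, 30.2 in control replicate 2, and 26.1, 28.6 and 19.6 in the Hsp47-deleted libraries. The 4 second-run libraries formed one range, with the control at its top. The log2 means of 3.94 ± 1.03 and 4.67 ± 0.27 (SD, n = 3 each) differed by 0.74 (SE 0.51; limma adjusted p = 0.493), less than the spread of the controls. The ratio of linear Flt1 to Kdr was 2.14 and 3.02 in the first run, 1.12 in control replicate 2, and 1.41, 1.59 and 2.42 in the Hsp47-deleted libraries. Kdr thus differed more than Flt1 between libraries.

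The Tie receptors went separate ways. Tie1 (chr4:118471191-118490061, minus strand), a receptor with no firmly known ligand of its own that modulates Tek, had linear values of 3.06 and 1.92 in the first run, 8.10 in control replicate 2, and 7.14, 7.24 and 4.42 in the Hsp47-deleted libraries. All 4 second-run values were above both first-run values. Its log2 means were 2.25 ± 0.84 and 2.84 ± 0.34 (SD, n = 3 each), a difference of 0.58 (SE 0.47; limma adjusted p = 0.552).

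Tek (Tie2, chr4:94739289-94874976, plus strand), which binds angiopoietin 1 and 2 and keeps vessels quiescent, had linear values of 71.0 and 47.9 in the first run, 67.6 in control replicate 2, and 56.6, 40.6 and 45.9 in the Hsp47-deleted libraries. The lowest and highest libraries were thus less than 2-fold apart, and runs and groups overlapped. It was the sole member with a pooled difference below 0, -0.37 (log2 means 5.96 ± 0.30 and 5.59 ± 0.24, SD, n = 3 each; SE 0.30; limma adjusted p = 0.555). The ratio of linear Tie1 to Tek was 0.0431 and 0.0400 in the first run and 0.0963 to 0.178 in the second.

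The junction and adhesion genes included the members with the largest pooled differences. Pecam1 (CD31, chr11:106654217-106750628, minus strand) is a homophilic adhesion molecule of endothelial contacts, also present on platelets and leukocytes. Its linear values were 18.3 and 9.71 in the first run, 37.8 in control replicate 2, and 54.4, 48.3 and 30.8 in the Hsp47-deleted libraries. Of these, Hsp47-deleted replicate 3 lay below control replicate 2 and the other two above it. The log2 means of 4.32 ± 0.93 and 5.47 ± 0.42 (SD, n = 3 each) differed by 1.15 (SE 0.49; limma adjusted p = 0.327).

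Cdh5 (VE-cadherin, chr8:104101625-104144511, plus strand) forms the adherens junction between endothelial cells. Its linear values were 25.5 and 8.48 in the first run, 43.9 in control replicate 2, and 43.4, 44.8 and 32.1 in the Hsp47-deleted libraries. Control replicate 2 and Hsp47-deleted replicates 1 and 2 were almost equal. Its log2 means were 4.49 ± 1.14 and 5.35 ± 0.26 (SD, n = 3 each), a difference of 0.86 (SE 0.55; limma adjusted p = 0.455). The antisense gene Gm29682 overlaps the Cdh5 locus and no strand setting is stated, so the Cdh5 value may share reads with it.

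Cldn5 (chr16:18776847-18778262, plus strand) is the main claudin of endothelial tight junctions. It was the member with the widest gap between runs, with linear values of 0.382 and 0.179 in the first run, 7.69 in control replicate 2, and 9.96, 10.2 and 8.58 in the Hsp47-deleted libraries. The 4 second-run values were close to each other, and the first-run values were near the floor. It was also the 1 member whose groups did not overlap, with log2 means of 1.27 ± 1.60 and 3.40 ± 0.12 (SD, n = 3 each) and a difference of 2.13 (SE 0.72; limma adjusted p = 0.286). Relative to linear Cdh5, Cldn5 was 0.0150 and 0.0211 in the first run and 0.175 to 0.268 in the second, so the junction genes did not keep 1 ratio across runs.

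Emcn (endomucin, chr3:137341067-137432185, plus strand) is a mucin-like surface protein of capillaries and veins. Its linear values were 10.5 and 2.64 in the first run, 25.0 in control replicate 2, and 19.2, 18.2 and 11.6 in the Hsp47-deleted libraries. The control in the second run was again above all 3 Hsp47-deleted libraries. The log2 means were 3.36 ± 1.42 and 4.09 ± 0.37 (SD, n = 3 each), a difference of 0.72 (SE 0.66; limma adjusted p = 0.607).

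The secreted members differed in pattern. Egfl7 (chr2:26580014-26593120, plus strand), an endothelial matrix protein whose gene hosts the microRNA Mir126a, had linear values of 2.26 and 4.75 in the first run, 30.9 in control replicate 2, and 23.8, 10.2 and 11.4 in the Hsp47-deleted libraries. It was the single one of the 8 that was lower in control replicate 3 than in control replicate 4. The log2 means were 3.08 ± 1.71 and 3.92 ± 0.62 (SD, n = 3 each), a difference of 0.84 (SE 0.80; limma adjusted p = 0.622). The annotation places Agpat2, Gm20532, Mir126a and Mir126b in overlap with the Egfl7 locus, so its value may share reads with them.

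Vwf (chr6:125546774-125686679, plus strand), the clotting glycoprotein of endothelial storage granules, also made by megakaryocytes, had linear values of 10.1 and 15.0 in the first run, 7.60 in control replicate 2, and 11.7, 13.1 and 12.2 in the Hsp47-deleted libraries. Its lowest value was in control replicate 2, the library in which 5 of the 8 were highest. The log2 means of 3.53 ± 0.45 and 3.73 ± 0.078 (SD, n = 3 each) differed by 0.21 (SE 0.33; limma adjusted p = 0.774). The ratio of linear Vwf to Pecam1 was 0.549 and 1.55 in the first run and 0.201 to 0.397 in the second.

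The run differences, second minus first on the log2 scale, were 2.98 for Cldn5, 2.07 for Egfl7, 1.83 for Kdr, 1.58 for Pecam1, 1.55 for Emcn, 1.40 for Cdh5, 1.32 for Flt1 and 1.14 for Tie1, against -0.16 for Vwf and -0.17 for Tek. The median over the 10 members was 1.47 and that over all tested genes 0.33. The 8 without overlap stood against 35% of all tested genes higher without overlap in the second run, and 0 members were among the 9.92% that were lower without overlap. Since the members were chosen on this contrast, nothing is read from these counts. When each library was centred on its median, an alternative added once the data had been seen, the members without overlap were Pecam1, Egfl7 and Cldn5 on the higher side, 3 in all against 20.1% of genes, and Vwf on the lower side, and the members' median became 1.03 against -0.11 for all genes. Quantile normalization gave the same counts, with a median of 1.16.

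The run contrast can also be described within the controls. Control replicate 2 was above both first-run controls for 8 members, where 46.4% of tested genes were so placed, and at least 2-fold above their log2 mean for the same 8, where 21.7% were. Its median excess over the first-run controls was 1.52 on the log2 scale for the members and 0.11 for all tested genes. The 8 are the members higher in the second run without overlap, so control replicate 2 stood above both first-run controls by that definition. As the members were chosen on the run contrast, nothing is read from these counts and medians. The first-run controls also differed from each other, with control replicate 4 the lowest of all libraries for 7 of the 8. Of the 8, 7 were lowest in replicate 3 among the Hsp47-deleted libraries. With 1 control in the second run, this comparison has no replicate on one side.

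The pooled comparison asks whether endothelial markers differ when Hsp47 is deleted from periostin-lineage cells. It shares libraries with the run contrast, since 2 of its 3 controls are the first run. By limma with Benjamini-Hochberg adjustment over 15109 genes, 0 of 10 members passed 0.05, against 0.245% of all genes. At an unadjusted p under 0.05, 2 members (Pecam1 and Cldn5) were higher in the Hsp47-deleted libraries and 0 lower, against 14.5% of genes higher. A difference above 0 was found for 9 members, all but Tek, and for 74.5% of genes, and 1 member (Cldn5) was higher without overlap, as were 18.3% of genes. The members' median difference was 0.76 and the median over all tested genes was 0.35. The smallest two-sided p that exact permutation allows for 3 against 3 is 0.10.

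With sequencing run as a covariate, which sets the Hsp47-deleted libraries against control replicate 2 alone, the direction turned for most members. The estimates were -1.08 (SE 0.57) for Egfl7, -0.89 (SE 0.65) for Kdr, -0.61 (SE 0.65) for Emcn, -0.51 (SE 0.38) for Tek, -0.35 (SE 0.44) for Tie1, -0.29 (SE 0.49) for Flt1 and -0.14 (SE 0.57) for Cdh5, and they were 0.19 (SE 0.48) for Pecam1, 0.28 (SE 0.38) for Cldn5 and 0.63 (SE 0.38) for Vwf. No member passed: limma adjusted p ran from 0.732 to 0.953, against 0.331% of genes called, and 0 members were lower at an unadjusted p under 0.05, against 1.27%. The 7 members below 0 compare with 28.1% of all tested genes, and the members' median was -0.32 against 0.29 for all genes. Control replicate 2 was among the libraries on which the members were chosen, so this count and median only describe the values. Centring or quantile normalization put Pecam1 below 0 as well, at -0.06 and -0.19.

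Within the second run, all 3 Hsp47-deleted libraries were below control replicate 2 for Kdr, Flt1, Tie1, Tek, Emcn and Egfl7, 6 members, against 11.7% of tested genes. All 3 were above it for Cldn5 and Vwf, 2 members, against 46.7% of genes. The 6 include both VEGF receptors and both Tie receptors. The members were chosen on values that include these libraries. Control replicate 2 was the highest library for 5 of the 8 members that were higher in the second run. Nothing is read from these counts. These orders rest on 1 control library, which the fit assumes to vary like the others.

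**Figure D2:**
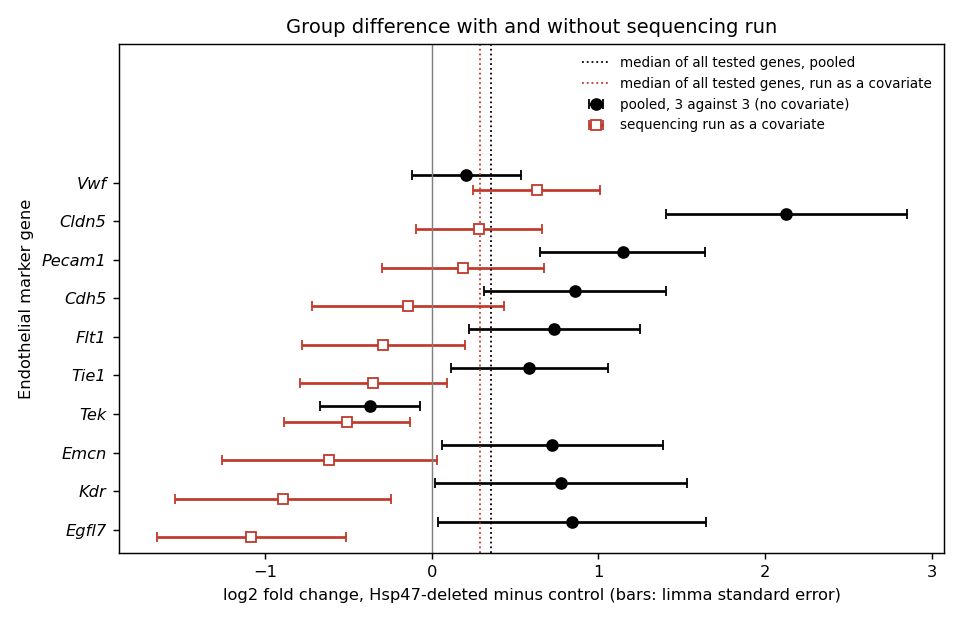
Log2 fold change (Hsp47-deleted minus control) of each member with its limma standard error, pooled over 3 against 3 libraries (filled) and with sequencing run as a covariate (open), with the medians of all tested genes dotted. Of the 9 members above 0 when pooled, 6 lie below 0 with the covariate, and Tek lies below 0 in both.

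Leaving out control replicate 2 makes label and run coincide. Then 3 members passed with limma, Cldn5 at a log2 difference of 3.05 (adjusted p = 0.00202), Pecam1 at 1.62 (adjusted p = 0.0299) and Egfl7 at 1.80 (adjusted p = 0.0358), against 2768 of all genes, or 18.3%. In that set the label cannot be told apart from the run. Over 15 alternatives the limma adjusted p ranged from 0.00202 to 0.842 for Cldn5, 0.0299 to 0.921 for Pecam1 and 0.0358 to 0.974 for Egfl7. Leaving out any other library called 0 members by limma adjusted p.

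Over the 6 libraries the 8 members varied together, as described by Pearson correlations of log2 values whose points share library and run. The 8 were set apart by a step between runs that they share, which by itself raises r among them. The 28 pairs among them had r from 0.637 (Cdh5 and Egfl7) to 0.988 (Cdh5 and Flt1), with a median of 0.925. Tek had r from -0.296 to 0.241 with each of the 8, and Vwf had r from -0.787 to -0.231 with every other member, the lowest with Tek. Against the mean of the other 9 members, Tie1 was the most alike (r 0.987) and Vwf the least (r -0.534).

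**Figure D3:**
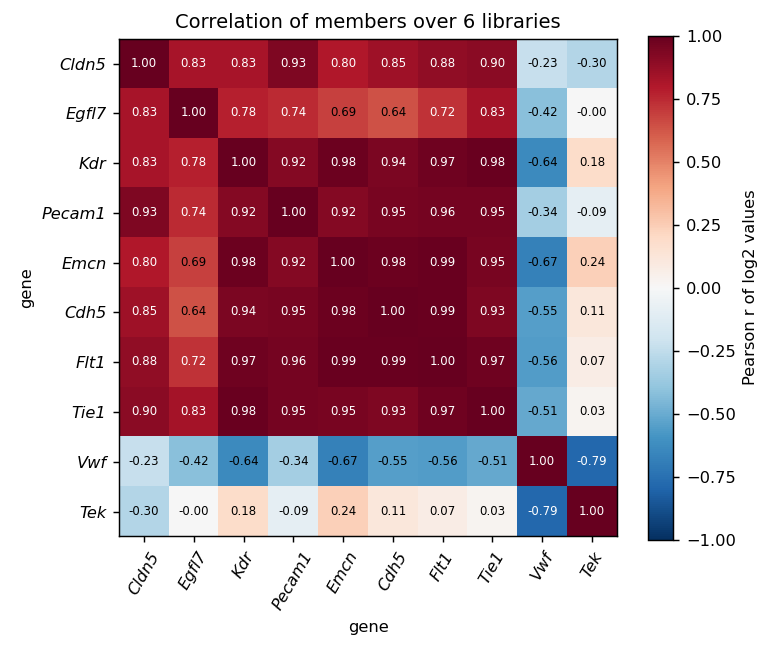
Pearson r of log2 values over 6 libraries for each pair of members, coloured from -1 (blue) to 1 (red). The 8 genes from Cldn5 to Tie1 form a block with r of at least 0.637, and Vwf is negative with every other member. The 8 were set apart by their shared run difference, which raises r among them.

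Among 9736 tested genes with a mean linear value of at least 5, the 5 whose log2 values were most like the members' mean were Mfap2 (r 0.999), Acaa1a (r 0.998), Dbnl, Ift27 and Hbb-b2 (each r 0.997). Mfap2 encodes a microfibril protein, Acaa1a a peroxisomal thiolase, Dbnl an actin-binding protein, Ift27 a ciliary transport protein and Hbb-b2 a haemoglobin chain of red cells. The linear values of Mfap2 were 2.84 and 0.343 in the first run, 25.2 in control replicate 2, and 21.3, 16.0 and 8.24 in the Hsp47-deleted libraries. Hbb-b2 stood at 12.6 and 1.90, then 177, then 120, 99.2 and 45.2 in the same order. The pattern of the markers was thus shared by genes of other roles.

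Further endothelial genes were grouped by role or surface location. In the pooled comparison 74.5% of all tested genes were above 0, with a median log2 difference of 0.35. By limma, 14.5% of all tested genes were higher in that comparison at an unadjusted p under 0.05. With run as a covariate 28.1% were below 0, with a median of 0.29. All 25 other surface and junction genes were tested, and 25 were higher in the pooled comparison with a median of 0.75, of which 0 passed by limma adjusted p and 2 (Eng and Rgcc) had an unadjusted p under 0.05. With run as a covariate 18 of the 25 were below 0, with a median of -0.41, and 16 were higher in the second run without overlap, where 35% of all tested genes were. Eng, the endoglin co-receptor for TGF-β family ligands, had linear values of 33.8 and 32.3 in the first run, 90.1 in control replicate 2, and 144, 148 and 80.6 in the Hsp47-deleted libraries. Fabp4, the capillary fatty acid-binding protein, had 92.5 and 12.5, then 384, then 357, 264 and 121. Cd34, a sialomucin of endothelium and also of fibroblasts, had 195 and 155, then 493, then 395, 332 and 198. Fabp4 and Cd34 had the same order of libraries as Kdr and Emcn, and Eng did not. Rgcc, a cell cycle regulator, had 17.7 and 13.2, then 32.0, then 31.0, 43.2 and 52.5.

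Of 14 endothelial transcription factors, 13 were tested, with 10 higher and 3 lower in the pooled comparison, a median of 0.34, and 0 passing by limma adjusted p (0 at an unadjusted p under 0.05). The pooled count and median are near those of all tested genes, and with run as a covariate 9 of the 13 were below 0, with a median of -0.34. Klf2, the shear-responsive factor, had linear values of 3.87 and 3.28 in the first run, 62.4 in control replicate 2, and 75.1, 57.7 and 21.1 in the Hsp47-deleted libraries. The ETS factors did not share its order. Ets1 was lower in the second run, at 57.5 and 56.0, then 28.8, then 26.0, 41.5 and 54.4, Erg overlapped at 37.6 and 30.6, then 21.5, then 22.9, 34.0 and 24.9, and Fli1 was higher in the second run, at 10.8 and 7.83, then 11.9 to 23.8.

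The ligands of the members' receptors were measured in the same libraries. The list of VEGF and angiopoietin ligands and co-receptors also held the receptor Flt4, which is counted again among the lymphatic genes. Of its 10 tested genes, 0 passed by limma adjusted p and 1 (Pgf) had an unadjusted p under 0.05. In the pooled comparison 10 were higher, with a median of 0.29. That median is below the 0.35 of all tested genes, and with run as a covariate 4 of the 10 were below 0. Vegfa had linear values of 148 and 166 in the first run, 46.8 in control replicate 2, and 67.6, 123 and 409 in the Hsp47-deleted libraries, an order unlike that of Kdr. Pgf, a ligand of Flt1, had 2.45 and 2.29, then 6.92, then 8.96, 8.29 and 12.4, and Vegfb, also a ligand of Flt1, had 6.59 and 2.09, then 10.0, then 17.3, 12.8 and 8.68. Nrp1, the VEGF co-receptor, varied less, from 32.3 to 58.6.

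All 9 arterial genes were higher in the pooled comparison, with a median of 0.46, 0 passing by limma adjusted p and 2 (Unc5b and Notch4) at an unadjusted p under 0.05. With run as a covariate 6 of the 9 were below 0, with a median of -0.14. Unc5b, a guidance receptor of arterial tip cells, had linear values of 7.52 and 7.92 in the first run, 27.1 in control replicate 2, and 54.6, 61.0 and 29.2 in the Hsp47-deleted libraries. Notch4, an endothelial Notch receptor, had 2.81 and 0.978, then 8.40, then 15.8, 18.4 and 5.12, and Efnb2, the arterial ephrin, ranged from 7.06 to 15.8 without a split by run.

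Of 7 venous and endocardial genes tested, 4 were higher and 3 lower, with a median of 0.09, 0 passing by limma adjusted p and 0 at an unadjusted p under 0.05. With run as a covariate 4 of the 7 were below 0, with a median of -0.51. Without overlap between runs, 2 of the 7 (Aplnr and Ephb4) were higher in the second run, against 35% of all tested genes. Another 2 (Selp and Sele) were lower without overlap, against 9.92% of all tested genes. Aplnr and Sele were named after their values were seen. Aplnr, the apelin receptor, had linear values of 0.346 and 0.164 in the first run, 9.51 in control replicate 2, and 4.67, 5.38 and 2.20 in the Hsp47-deleted libraries. The adhesion molecule Selp, stored with von Willebrand factor and also found in platelets, had linear values of 23.5 and 15.9 in the first run, 1.16 in control replicate 2, and 1.11, 1.86 and 5.12 in the Hsp47-deleted libraries. The endothelial selectin Sele had 12.4 and 17.3, then 1.28, then 1.38, 2.84 and 4.34. Ephb4, the venous Eph receptor, had 3.31 and 3.47, then 5.01, then 8.02, 7.38 and 5.12, and Nr2f2, the venous nuclear receptor, ranged from 3.57 to 8.26. Of 4 lymphatic genes tested, 3 were higher and 1 lower and 0 passed by limma adjusted p (0 at an unadjusted p under 0.05), with a median of 0.10. The lymphatic VEGF receptor Flt4 ranged from 1.41 to 2.45, Pdpn, also a fibroblast gene, from 16.1 to 49.5 and Reln from 2.95 to 9.69, each with overlap between runs.

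Markers of other cells moved with the same libraries. The cardiomyocyte list of 10 genes summed to 49.9 to 292 in the controls and 177 to 267 in the Hsp47-deleted libraries, the leukocyte list of 12 to 41.0 to 269 and 142 to 214, and the erythroid and platelet list of 8 to 26.5 to 712 and 198 to 401. For each of these 3 lists the first-run controls held both of the lowest sums and control replicate 2 the highest. Without S100a8, its largest gene, the leukocyte list was 39.6 and 81.8 in the first run, and control replicate 2, at 103, was the lowest of the second run, which reached 140.2. Against 35% of all tested genes, 6 of 9 tested cardiomyocyte genes, 8 of 10 leukocyte genes, 7 of 8 erythroid and platelet genes, 7 of 12 fibroblast genes and 3 of 9 mural cell genes were higher in the second run without overlap, and 1 leukocyte gene (Itgam) was lower without overlap. The mural cell list of 10 genes, which marks the pericytes and smooth muscle beside endothelium, had overlapping sums of 314 and 185 in the first run and 182 to 286 in the second, and Rgs5 was the largest value in each. Without Rgs5, left out once the values had been seen, the other 9 mural cell genes summed to 60.7 and 45.5 in the first run and 95.2 to 139 in the second, with no overlap. The contribution of other cell types in the endothelial values was not tested.

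**Figure D4:**
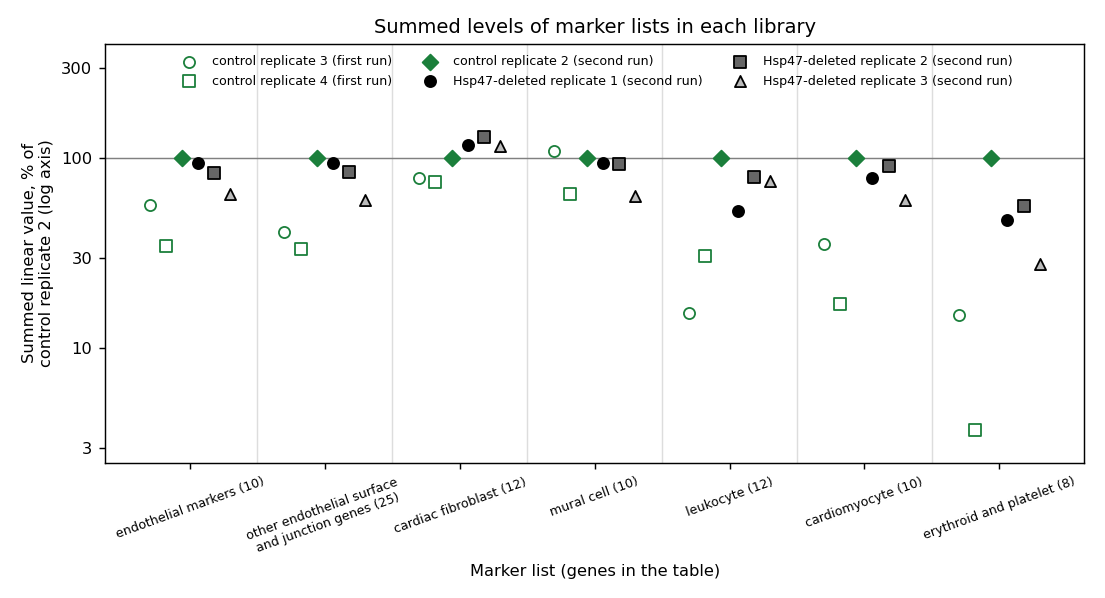
Summed linear value of each marker list in each library as a percent of control replicate 2, on a log axis. The first-run controls stand at 56.8% and 34.7% for the 10 endothelial markers and at 15.0% and 3.73% for the erythroid and platelet list, and mural cell sums, with Rgs5 included, overlap between runs.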

How the data were processed

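Total RNA of EGFP+ cells from 6 samples was amplified (Ovation RNA-Seq System v2), made into Nextera XT libraries and sequenced. The authors deposited 1 table of log2(value + 1) per gene with a column per library. The submitters' processing notes list kallisto and mm10, and the paper's methods name AltAnalyze. Versions, annotation and the linear unit are not given in the sources used here. The values are not counts, so depth is unknown and no interval that needs depth is given. The deposited group means and comparison columns (fold, p-values) were not used.

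The members and all gene lists were chosen with earlier results of these data known. Log2 values were used as deposited, with their pseudocount of 1. Genes with a mean linear value of at least 1 were kept (15109 of 28987), and limma 3.58.1 (R 4.3.3) compared the groups (mean-variance trend, no covariate), with Benjamini-Hochberg adjustment, and again with sequencing run as a covariate. Where the labels do not say that libraries are separate animals, p-values measure only the spread between libraries. The code was tested on simulated data. Named genes were the 10 members, the 2 with the smallest p and the 2 with the highest mean in each further endothelial list, the 5 most like the members' mean, and Serpinh1. Alternatives were other filters, pseudocounts (0.1 and 5), centring, quantile normalization, no variance trend, a replicate block, the second run alone and leaving out each library. Positions are from GENCODE M21 (GRCm38) and promoter windows from RefSeq (GRCm38.p6). Protein sequences were not used here.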

Additional observations from a re-analysis of the deposited data

How the results depend on the processing

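The count of genes passing by limma adjusted p was 37 and became 18 with centring, 16 with a pseudocount of 0.1, 17 with quantile normalization, and 8 to 2768 when 1 library was left out, the highest without control replicate 2. With the replicate block, made from replicate numbers that the labels do not call pairs, it was 0. Deviations of same-numbered libraries correlated at r 0.156 and 0.228 in the 2 pairs there are. The number of members passing was 0 in all of these apart from 3 without control replicate 2 (0 to 3 over the left-out libraries). The members' median log2 difference was 0.76 (all tested genes 0.35). It became -0.32 (all tested genes 0.29) with the second run alone and with run as a covariate. With centring it was 0.34 (all tested genes -0.06) and with quantile normalization 0.33 (all tested genes -0.05). The members' excess over all tested genes was 0.40 both as deposited and with centring, and 0.38 with quantile normalization. The members' median was 0.49 (all tested genes 0.21) with a pseudocount of 5 and 0.17 (all tested genes 0.41) with the replicate block. With a library left out, it ran from 0.23 without control replicate 4 to 1.38 without control replicate 2. The median of all tested genes was 0.39 in each of these 2 settings. Without control replicate 4 the members' median was thus below that of all tested genes.

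In both run settings the difference of Egfl7 became -1.08, of Kdr -0.89, of Emcn -0.61, of Tie1 -0.35, of Flt1 -0.29 and of Cdh5 -0.14. With the replicate block Emcn was at -0.15 and Kdr at -0.16. Vwf turned to -0.21 with centring and -0.18 with quantile normalization. With a library left out, Emcn ran from -0.024 without control replicate 4 to 1.39 and Vwf from -0.0018 without control replicate 2 to 0.45. Tek stayed below 0 in all 16 alternatives. The cause of these changes was not tested. With 1 control library in the second run, depth unknown and 3 libraries a group, the label and the run cannot be fully separated for the members.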
